A study of Mus musculus with 6 samples.

Results

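Secreted regulators of blood and lymphatic vessels were followed in the ribosome-bound mRNA of hippocampal astrocytes, in libraries labelled with intact or deleted connexin 43 (Cx43, the gap junction protein encoded by Gja1). The set holds 9 genes, Vegfa, Vegfb, Vegfc, Angpt1, Angptl4, Agt, Ccbe1, Ptn and Mdk, of 22086 genes counted, and each gene is read through the transcript with the highest total over the 6 libraries. The genes are known vascular regulators chosen by their counts in these same libraries, with the earlier result of each genotype comparison known, so that their differences between genotypes are given as a description.

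Polysomes were purified by TRAP (translating ribosome affinity purification), in which ribosomes bearing the eGFP-tagged protein L10a are pulled down and their mRNA is sequenced. Both genotypes carried the Aldh1l1:L10a-eGFP transgene, whose tag follows the Aldh1l1 promoter active in astrocytes, and both carried floxed Cx43 alleles (Cx43 fl/fl). Cx43FL littermates had no Cre, whereas Cx43KO mice also carried Gfap Cre, a recombinase under the human GFAP promoter that acts in astrocytes and in the progenitors of other neural cells. Whole hippocampi of 6 weeks-old mice gave 3 libraries per genotype, and neither the labels nor the methods tie a library to an animal, so that the p-values measure the spread between these libraries only.

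Vascular endothelial growth factors (VEGF) are secreted ligands of tyrosine kinase receptors on endothelial cells: VEGF-A drives the sprouting of blood vessels, VEGF-B acts on endothelial survival and fatty acid uptake, and VEGF-C is the main growth factor of lymphatic vessels, matured with the help of CCBE1. Angiopoietin 1 steadies vessels through the receptor Tie2 (Tek), angiotensinogen is the precursor of the angiotensins that control vessel tone, and astrocytes are its main source in the brain. Angiopoietin-like 4 inhibits lipoprotein lipase, and pleiotrophin and midkine form a pair of heparin-binding growth factors that act on neurons, glia and endothelium.

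The targeted gene was examined first. Gja1 stood at 91.9, 91.7 and 82.3 CPM (counts per M counts on genes, scaled by edgeR's TMM factors) in Cx43FL and at 87.2, 98.4 and 95.1 CPM in Cx43KO (log2 fold change 0.08, SE 0.28), so that the count of the whole transcript did not separate the genotypes. Counts on a whole transcript do not show whether the floxed part was present, and the genotype of each library below is the one its label gives. Total counts ranged from 33.4 to 77.0 M on transcripts and from 14.8 to 34.7 M on genes. The library labelled Cx43KO replicate 1 stood apart, at 123 on the first principal component (41% of the variance) against -50.7 to -0.41 for the other 5, and its summed astrocyte markers other than Gja1 were at 47.9% of the Cx43FL mean. Its summed neuronal markers were at 7580 CPM, against 2110 to 2830 CPM in Cx43FL and 2930 and 4290 CPM in the other Cx43KO libraries. Cx43KO replicate 2 correlated across genes at 0.911, 0.870 and 0.924 with the 3 Cx43FL libraries, and at 0.835 and 0.894 with the other Cx43KO libraries (Pearson's r, where genes are not independent replicates). Cx43KO replicate 3 was at 0.898, 0.862 and 0.907 with Cx43FL, and at 0.790 with Cx43KO replicate 1. Cx43KO replicate 1 was at 0.824, 0.783 and 0.837 with Cx43FL, so that the Cx43KO libraries did not form a group of their own by this measure. Summed choroid plexus markers were higher in every Cx43KO library, at 22500 to 33200 CPM against 473 to 15500 CPM, with 7 of the 10 genes separated. The libraries shared flow cell lanes in groups of 3, and neither the labels nor the methods tie a library to a lane. A lane that held 1 genotype only could not be told apart from genotype.

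All 9 genes were counted in all 6 libraries and passed the filter on low counts. Compared by edgeR's quasi-likelihood test, with p adjusted by Benjamini-Hochberg over 13545 genes, 0 of the 9 differed between genotypes, where 1 gene (Prm1, named after its value was seen) was higher in Cx43KO (0.00738%) and none lower (0.0%). At an unadjusted p below 0.05, Ccbe1 was higher and Angptl4 lower, against 5.66% of all tested genes higher and 2.67% lower (8.34% in either direction). DESeq2 with its prior called Ccbe1, where 0.827% of all genes were called higher and 0.124% lower (0.951% in either direction). DESeq2 without a prior called Ccbe1 as well, where 1.01% were called higher and 0.189% lower (1.2% in either direction). In 4 of the 9 genes the log2 fold change was positive and in 5 negative, and their median was -0.08, beside 0.07 over all tested genes. Libraries of both genotypes did not overlap for Ccbe1 and Angptl4 among the 9, and for 15.5% of all tested genes.

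**Figure D1:**
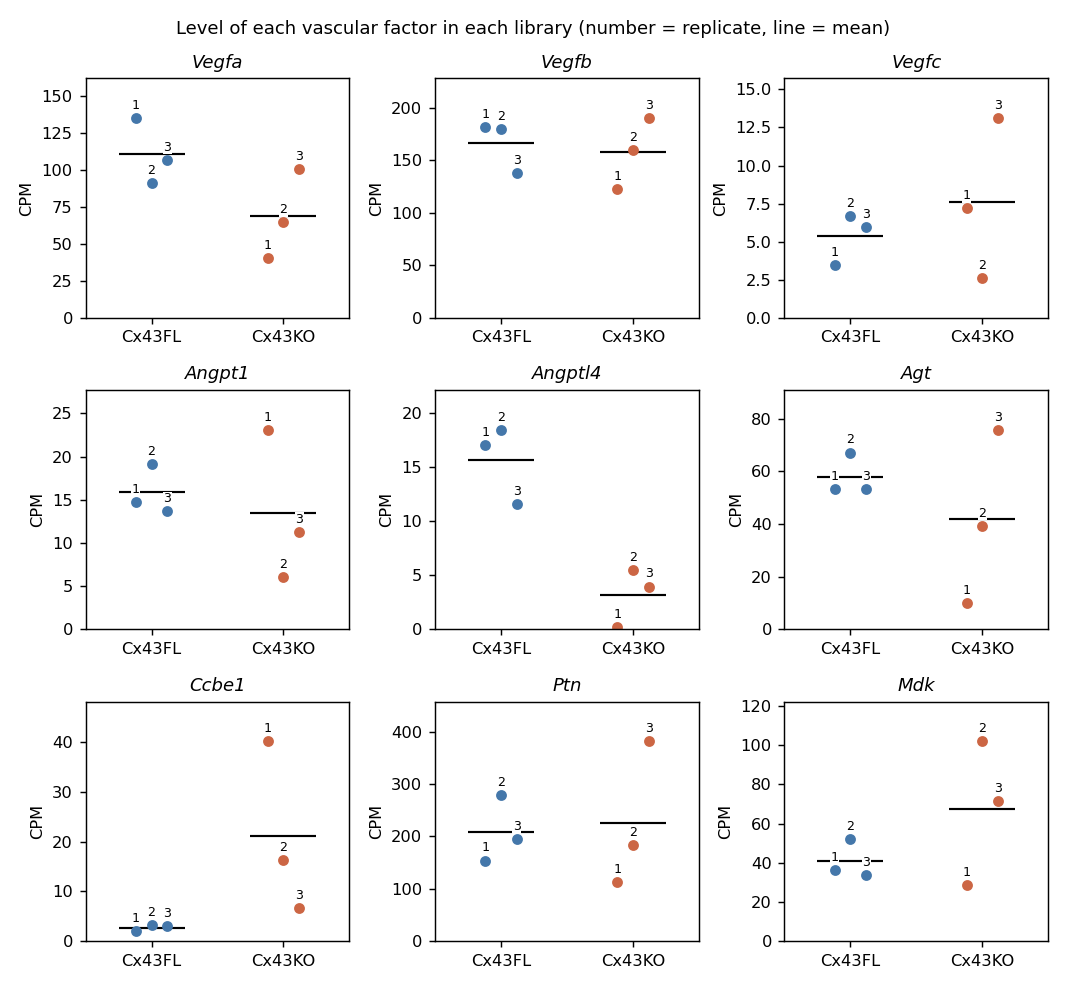
Level of each vascular factor in CPM (vertical axis, starting at 0) in the 3 Cx43FL and 3 Cx43KO libraries; each point is a library with its replicate number and each line is the mean of a genotype. Angptl4 and Ccbe1 are the genes whose genotypes do not overlap, and in 6 of the 9 panels the lowest point is Cx43KO replicate 1.

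The spread among libraries differed between the genotypes. The coefficient of variation was larger in Cx43KO for 9 of the 9 genes, as it was for 68.7% of all tested genes. From the lowest to the highest Cx43FL library, levels differed from 1.26-fold (Agt) to 1.92-fold (Vegfc). In Cx43KO the same ratio ran from 1.55-fold (Vegfb) to 21.8-fold (Angptl4, whose lowest library held 4 counts). Cx43KO replicate 1, the library with the low astrocyte markers, was the lowest of the 6 for Vegfa, Vegfb, Angptl4, Agt, Ptn and Mdk, a place it took for 29.9% of all tested genes. Its part in each difference was not tested beyond leaving it out. In such bulk samples, fewer cells of a type and less RNA per cell cannot be told apart.

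Vegfa, the main driver of vessel sprouting, had its highest levels in Cx43FL. Its transcript Vegfa-202 (GRCm38 chromosome 17, 46016993 to 46032369, minus strand, 7 exons) was at 135, 91.1 and 107 CPM in Cx43FL and at 40.7, 64.8 and 101 CPM in Cx43KO. The lower Cx43KO libraries, replicates 1 and 2, lay below every Cx43FL library, and replicate 3 lay inside the Cx43FL range. The means were 111 ± 21.9 CPM (SD, n = 3) and 68.8 ± 30.2 CPM (SD, n = 3). Its log2 fold change of -0.69 (SE 0.37) did not pass edgeR's quasi-likelihood test (Benjamini-Hochberg adjusted p = 0.612), and the exact 2-sided permutation test gave p = 0.2, where 0.1 is the smallest that 3 libraries against 3 allow. Leaving out single libraries moved the log2 fold change between -1.07 and -0.43, the latter without Cx43KO replicate 1.

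Vegfb, the VEGF-A paralog linked to fatty acid handling, overlapped between the genotypes. Vegfb-201 (chromosome 19, 6982473 to 6987651, minus strand) was at 182, 180 and 138 CPM in Cx43FL and at 123, 160 and 190 CPM in Cx43KO. The highest and the lowest library were both Cx43KO. The means of 167 ± 24.6 and 158 ± 33.8 CPM (SD, n = 3 each) differed by less than either SD. This was a log2 fold change of -0.08 (SE 0.29, edgeR Benjamini-Hochberg adjusted p = 0.948), and it turned to 0.06 without Cx43KO replicate 1.

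Promoters of Vegfa, Vegfb and Agt are shown because they set the ligand with the lower Cx43KO mean beside a paralog whose means lay closer and beside the astrocytic hormone precursor. Sequences are the 250 bases before the start in RefSeq (GRCm38.p6), read 5′ to 3′ on the minus strand, with an entry found for 5 of the 9 genes. Capitals mark motifs searched on both strands. The TATA motif was read as TATAAA and its variant as TATATA. The GC box was read as GGGCGG. The core of the hypoxia response element was read as ACGTG and its variant as GCGTG. The CAAT motif was read as CCAAT. Neighbouring matches can form a single run of capitals, and no motif holds another whole.
Vegfa, chr17:46032378-46032627: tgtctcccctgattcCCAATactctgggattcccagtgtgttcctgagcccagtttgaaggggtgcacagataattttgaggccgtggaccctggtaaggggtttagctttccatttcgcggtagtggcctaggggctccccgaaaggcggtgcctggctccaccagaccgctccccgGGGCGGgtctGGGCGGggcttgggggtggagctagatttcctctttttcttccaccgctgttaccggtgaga
Vegfb, chr19:6987652-6987901: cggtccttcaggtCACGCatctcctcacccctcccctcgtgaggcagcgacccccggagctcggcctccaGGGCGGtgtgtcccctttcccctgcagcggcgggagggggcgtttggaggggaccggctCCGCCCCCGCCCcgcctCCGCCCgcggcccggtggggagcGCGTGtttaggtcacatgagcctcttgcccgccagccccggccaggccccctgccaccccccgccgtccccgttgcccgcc
Agt, chr8:124569707-124569956: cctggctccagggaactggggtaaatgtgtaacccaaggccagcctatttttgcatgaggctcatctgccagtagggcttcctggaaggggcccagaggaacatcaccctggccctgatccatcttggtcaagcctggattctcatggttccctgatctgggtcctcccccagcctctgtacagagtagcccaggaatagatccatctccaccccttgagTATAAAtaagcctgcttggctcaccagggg
The Vegfa sequence holds 2 GC boxes and 1 CAAT motif, and a second RefSeq start of Vegfa inside the gene has 2 matches to the hypoxia core in its 250 bases. Vegfb holds 4 GC boxes and 2 matches to the hypoxia core. Agt has a single match, the TATA motif from -30 to -25. Among 32851 promoters of this length, 15.6% hold a TATA motif, 32.7% a GC box, 38.6% the hypoxia core and 33.8% a CAAT motif. A match is a description of letters, and the data hold no measurement of binding at these positions.

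Reads of Vegfa were counted on 11 transcripts. Vegfa-201, Vegfa-202 and Vegfa-211 each held 26.2% to 26.7% of the gene's summed counts, and their counts lay within 3% of each other in every library, so that the same reads were counted on each. The last exon has 1887 bases in Vegfa-201 and Vegfa-202. In the annotation used here (GENCODE M21), the last exon of Vegfa-211 has 22 bases, so that its high count does not follow from that model. The other 8 transcripts have last exons of 22 to 401 bases and shared less of the counts. Vegfa-204 reached 12.4%, 11.1% and 16.7% of the Vegfa-202 count in Cx43FL and 1.22%, 18.0% and 6.92% in Cx43KO. Cx43KO replicates 1 and 3 lay below every Cx43FL library by this share and replicate 2 above them. These transcripts were singled out after their values were seen, and the log2 fold change of Vegfa-204 was -1.22 (SE 0.87, edgeR Benjamini-Hochberg adjusted p = 0.788 over all transcripts).

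**Figure D2:**
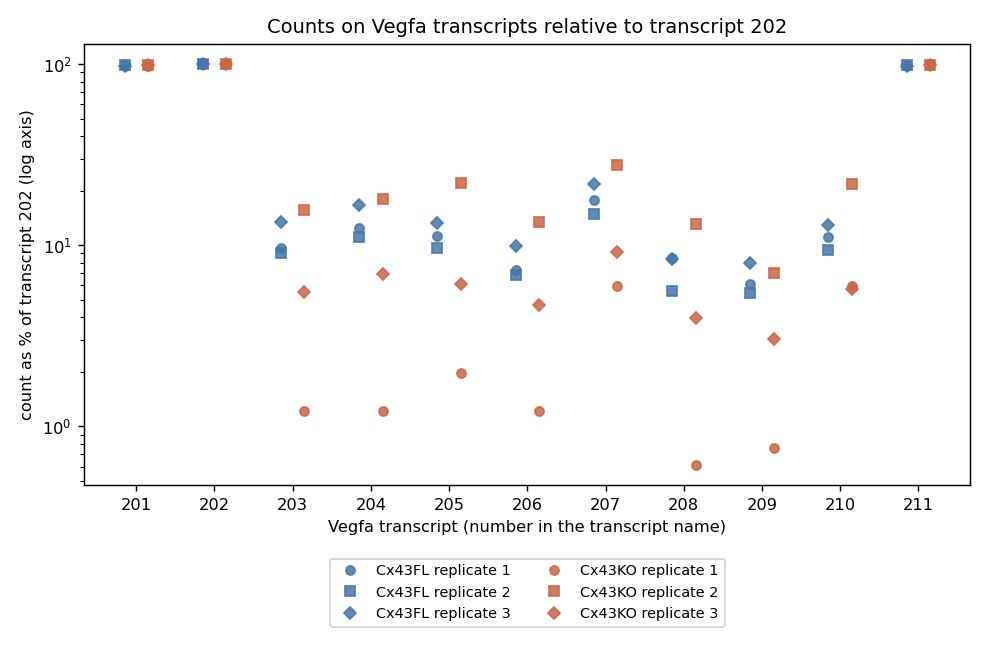
Count on each of the 11 Vegfa transcripts as a percent of the count on Vegfa-202 (vertical log axis) in each library, with colors for genotypes and shapes for replicates. The transcripts Vegfa-201, Vegfa-202 and Vegfa-211 sit near 100% in every library, whereas the other 8 spread widely in Cx43KO, where replicate 2 is the highest Cx43KO library for each of them.

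Vegfc, the lymphatic growth factor, was a low transcript. The counts of Vegfc-201 (chromosome 8, 54077606 to 54187096, plus strand) were 53, 101 and 91 for Cx43FL against 116, 65 and 424 for Cx43KO. On the CPM scale these were 3.49, 6.70 and 5.93 against 7.20, 2.61 and 13.1, and the Cx43KO libraries lay on both sides of the Cx43FL range. A log2 fold change of 0.51 (SE 0.82, edgeR Benjamini-Hochberg adjusted p = 0.868) rested on Cx43KO replicate 3, without which it was -0.13.

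Ccbe1, the secreted cofactor that promotes the maturation of VEGF-C, was the gene of the set with the largest positive difference. Cx43FL held 31, 47 and 45 counts and Cx43KO 647, 409 and 212, or 2.04, 3.12 and 2.93 CPM against 40.2, 16.4 and 6.55 CPM. All 3 Cx43KO libraries exceeded all 3 Cx43FL libraries, with the means at 2.70 ± 0.575 and 21.0 ± 17.3 CPM (SD, n = 3 each). The 3 Cx43KO libraries were at 1490%, 610% and 243% of the Cx43FL mean, so the size of the difference varied 6.14-fold among them. On the log2 scale the fold change was 2.96 (SE 0.77) and ranged from 2.08 to 3.39 when single libraries were left out. It did not pass edgeR's quasi-likelihood test (Benjamini-Hochberg adjusted p = 0.490), while DESeq2 with its prior gave 2.05 and an adjusted p of 0.0109. The exact permutation p was 0.1, the smallest possible. Groups separated in this direction for 8.08% of all tested genes. Summed neuronal markers were higher in every Cx43KO library too, at 7580, 2930 and 4290 CPM against 2110, 2670 and 2830 CPM in Cx43FL. Of these 12 markers 4 were separated higher, and their part in the Ccbe1 difference was not tested. Ccbe1 is also in the study's own list of raised genes, which came from the same libraries and is not independent evidence.

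The Ccbe1 counts came from Ccbe1-201 (chromosome 18, 66056855 to 66291788, minus strand, 12 exons), which held 97.6% of the counts over its 4 transcripts and which the annotation types as a target of nonsense-mediated decay. A longer protein-coding transcript of Ccbe1 (outside the naming rule) held 7, 0 and 0 counts in the Cx43FL libraries against 1, 1 and 2 in Cx43KO, although its exons in the annotation used here contain those of Ccbe1-201. The gene model behind the counts may therefore have differed, and these values do not tell which Ccbe1 isoform was bound to ribosomes. An antisense gene overlaps Ccbe1 exons over 26 bases, and whether counting used the strand is not given in the sources used here. Adamts3, the protease that works with CCBE1 on VEGF-C, was at 3.16, 1.59 and 1.56 CPM in Cx43FL and 13.9, 3.74 and 4.11 CPM in Cx43KO. Its libraries did not overlap, and the log2 fold change was 1.78 (SE 0.95, edgeR Benjamini-Hochberg adjusted p = 0.609), or 0.89 without Cx43KO replicate 1. Adamts3 was named for its part in the Ccbe1 pathway after its values were seen.

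Angpt1, the Tie2 ligand that steadies vessels, did not separate the genotypes. Angpt1-201 (chromosome 15, 42424723 to 42676977, minus strand) was at 14.8, 19.1 and 13.7 CPM in Cx43FL and at 23.1, 6.07 and 11.3 CPM in Cx43KO. The highest library was Cx43KO replicate 1, and the other Cx43KO libraries lay below the Cx43FL range. The log2 fold change was -0.24 (SE 0.61, edgeR Benjamini-Hochberg adjusted p = 0.923), and it became 0.11 without Cx43KO replicate 2. An antisense gene model overlaps 737 exonic bases of Angpt1, so that its reads may include those of the other strand. The receptors of the angiopoietins were almost absent, with Tek at 8, 0 and 0 counts in Cx43FL and 0 in every Cx43KO library, and Tie1 at 12, 1 and 1 counts in Cx43FL and 0 in every Cx43KO library.

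Angptl4, the lipoprotein lipase inhibitor induced by fasting and by low oxygen, had the largest negative difference of the 9 genes. Angptl4-201 (chromosome 17, 33773750 to 33781830, minus strand) received 258, 278 and 178 counts in Cx43FL, against 4, 135 and 128 in Cx43KO. In CPM, Cx43FL was at 17.0, 18.4 and 11.6 and Cx43KO at 0.248, 5.43 and 3.95. All 3 Cx43KO libraries fell short of all 3 Cx43FL libraries, and the means were 15.7 ± 3.61 and 3.21 ± 2.67 CPM (SD, n = 3 each). Cx43KO replicate 1, near the floor of 3 counts, was at 1.58% of the Cx43FL mean, and replicates 2 and 3 were at 34.6% and 25.2%. Angptl4 had a log2 fold change of -2.28 (SE 0.93), which stayed between -2.88 and -1.75 without single libraries, the latter without Cx43KO replicate 1. It did not pass edgeR's quasi-likelihood test (Benjamini-Hochberg adjusted p = 0.563) or DESeq2 with its prior (adjusted p = 0.209). The exact permutation p was 0.1, and 7.45% of all tested genes were separated in this direction. A shorter Angptl4 transcript held 44.2% of the gene's summed counts and Angptl4-201 46.2%, with equal counts in 4 of the 6 libraries, so that the reads were shared.

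Lpl, the lipase that ANGPTL4 inhibits, lay in the other direction. It stood at 5.40, 4.18 and 11.9 CPM in Cx43FL and at 41.4, 14.9 and 41.4 CPM in Cx43KO, without overlap. Lpl had a log2 fold change of 2.19 (SE 0.62), with an edgeR Benjamini-Hochberg adjusted p of 0.490 and a DESeq2 adjusted p of 0.0344. Summed microglial markers, which mark cells that also express Lpl, were at 95.6 to 184 CPM in Cx43KO against 30.9 to 53.8 CPM (12 of 12 markers counted, 5 of them separated higher), and their part in the Lpl difference was not tested. Gpihbp1, the endothelial anchor of the lipase, and the angiopoietin-like genes Angptl7 and Angptl8 were listed at 0 in all 6 libraries.

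Agt, the angiotensin precursor, varied more among Cx43KO libraries than between the genotypes. Agt-201 (chromosome 8, 124556534 to 124569706, minus strand) was at 53.4, 67.2 and 53.2 CPM in Cx43FL and at 10.1, 39.4 and 75.8 CPM in Cx43KO. The Cx43KO libraries lay at 17.4%, 68.1% and 131% of the Cx43FL mean, replicates 1 and 2 below the Cx43FL range and replicate 3 above it. The means of 57.9 ± 8.03 and 41.8 ± 32.9 CPM (SD, n = 3 each) gave a log2 fold change of -0.47 (SE 0.57). It did not pass edgeR's quasi-likelihood test (Benjamini-Hochberg adjusted p = 0.816), and without Cx43KO replicate 1 it was -0.01.

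Of 11 other genes of the renin-angiotensin system, 6 passed the filter and 0 were called, with a median log2 fold change of 0.87, beside 0.07 over all genes. Ace, which makes angiotensin II, was at 22.5, 4.44 and 22.0 CPM in Cx43FL and 30.2, 26.2 and 65.0 CPM in Cx43KO, without overlap (log2 fold change 1.31, SE 0.63, and 0.79 without Cx43KO replicate 3). Ace is also a gene of choroid plexus and endothelium, whose summed markers were higher in every Cx43KO library too. Of the endothelial markers, however, 3 were separated lower and 1 higher, and the part of these cells was not tested. Anpep, an aminopeptidase that trims angiotensin III, held few counts in Cx43FL (17, 0 and 11). It was at 1.12, 0 and 0.716 CPM in Cx43FL and 3.10, 5.67 and 8.95 CPM in Cx43KO. Its log2 fold change of 3.26 (SE 1.36) had an edgeR Benjamini-Hochberg adjusted p of 0.572, and the part of other cell types was not tested. Renin and the angiotensin receptors Agtr1a, Agtr1b and Agtr2 had at most 11 counts in any library, so that differences in them were not detectable at this depth.

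Ptn, which encodes pleiotrophin, had the highest mean CPM of the 9 genes in both genotypes, without division by length. Vegfb exceeded it in Cx43FL replicate 1 (182 against 154 CPM) and in Cx43KO replicate 1 (123 against 113 CPM). Ptn-201 (chromosome 6, 36714929 to 36810220, minus strand) was at 154, 279 and 195 CPM in Cx43FL and at 113, 184 and 382 CPM in Cx43KO. Cx43KO held both the lowest and the highest library. Its log2 fold change was 0.11 (SE 0.43, edgeR Benjamini-Hochberg adjusted p = 0.953), and its sign turned with the library left out, from -0.50 without Cx43KO replicate 3 to 0.43 without Cx43KO replicate 1.

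Mdk, the gene of the related factor midkine, had a higher mean in Cx43KO. Mdk-202 (chromosome 2, 91929828 to 91931780, minus strand) was at 36.1, 52.3 and 33.5 CPM in Cx43FL and at 28.4, 102 and 71.7 CPM in Cx43KO. Cx43KO replicates 2 and 3 lay above every Cx43FL library and replicate 1 below them all. The means were 40.6 ± 10.2 and 67.4 ± 37.1 CPM (SD, n = 3 each). A log2 fold change of 0.73 (SE 0.46) did not pass edgeR's quasi-likelihood test (Benjamini-Hochberg adjusted p = 0.647), and it was 1.09 without Cx43KO replicate 1. Counts on Mdk-201, Mdk-202 and Mdk-204 were nearly equal, at 26.2% of the gene's summed counts each, and Mdk-203 held 21.5%.

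Of 11 listed receptors of pleiotrophin and midkine, 8 were tested and 0 were called, with 6 positive and 2 negative log2 fold changes and a median of 0.47. Ltk, Sdc1 and Itgb3 were removed by the filter on low counts. Ptprz1, the receptor phosphatase that pleiotrophin inhibits, was at 145, 222 and 169 CPM in Cx43FL and 220, 160 and 345 CPM in Cx43KO, which overlapped. The syndecan Sdc4 overlapped, at 399, 389 and 411 CPM in Cx43FL and 264, 476 and 447 CPM in Cx43KO (log2 fold change -0.01, SE 0.29). Lrp1, an endocytic receptor that also binds midkine, was at 36.4, 52.5 and 42.3 CPM in Cx43FL and 76.1, 71.7 and 112 CPM in Cx43KO, without overlap. Its log2 fold change was 0.98 (SE 0.34, edgeR Benjamini-Hochberg adjusted p = 0.540). Sdc3 was likewise separated, with a log2 fold change of 0.81 (SE 0.35, edgeR Benjamini-Hochberg adjusted p = 0.591).

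**Figure D3:**
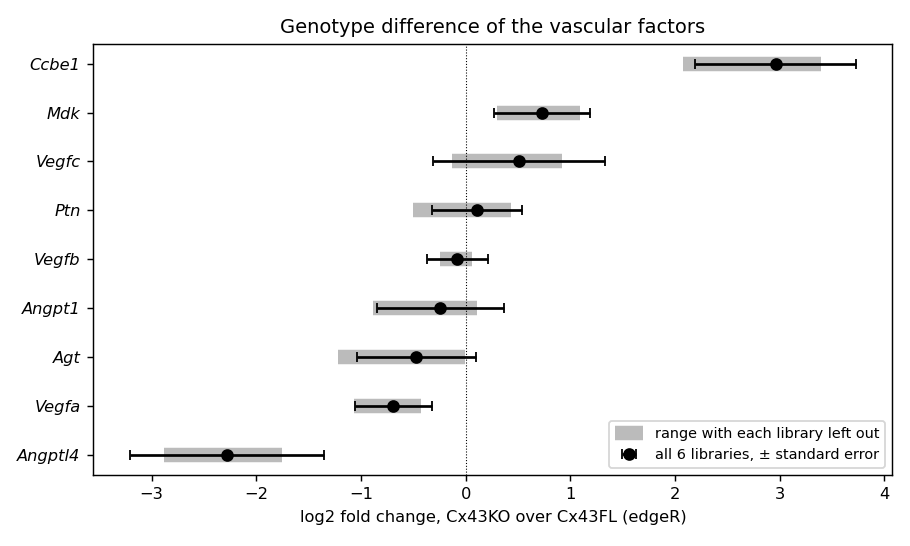
Log2 fold change, Cx43KO over Cx43FL, of the 9 vascular factors in the edgeR fit (points) with the SE (thin bars) and the range obtained when each library is left out (grey bands). The leave-one-out values of Ccbe1 (2.08 to 3.39) and Mdk (0.30 to 1.09) stay above 0, those of Angptl4, Vegfa and Agt stay below 0, and those of Vegfb, Vegfc, Angpt1 and Ptn lie on both sides.

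Levels were compared between genes as CPM per kb of the counted transcript. In Cx43FL the order was Vegfb and Ptn (both 130), Mdk (52.5), Vegfa (32.2), Agt (30.6), Angptl4 (4.74), Angpt1 (3.72), Vegfc (2.19) and Ccbe1 (0.508). The ranges of neighbours overlapped for Vegfb and Ptn, for Vegfa and Agt, and for Angptl4 and Angpt1, and the other neighbours were apart in all 3 libraries. In Cx43KO the order per kb was Ptn (140), Vegfb (123), Mdk (87.2), Agt (22.1), Vegfa (19.9), Ccbe1 (3.97), Angpt1 (3.16), Vegfc (3.12) and Angptl4 (0.970). Of these neighbours only Vegfa and Ccbe1 had ranges without overlap. Ccbe1 was thus the lowest of the 9 genes by mean in Cx43FL and Angptl4 the lowest in Cx43KO.

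**Figure D4:**
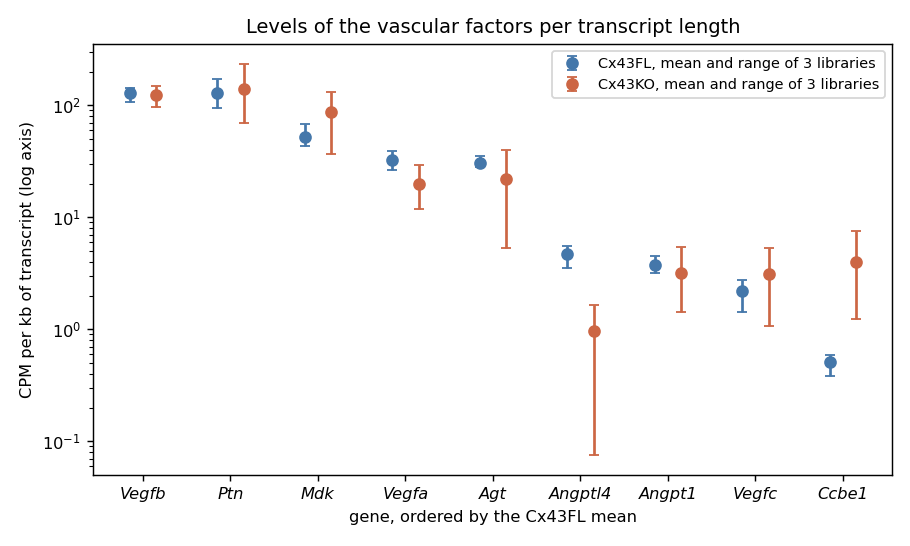
Level of each vascular factor in CPM per kb of its counted transcript (log axis), as the mean (points) and the range of 3 libraries (bars) of Cx43FL and Cx43KO. Vegfb, Ptn and Mdk have the highest means in both genotypes, and the 4 lowest genes, Angptl4, Angpt1, Vegfc and Ccbe1, change places between the genotypes.

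Because astrocyte marker mRNAs varied among the libraries, levels were also divided by the summed CPM of 11 astrocyte markers without Gja1, a scale added after the data were seen. This sum was 28200, 27600 and 31100 CPM in Cx43FL and 13900, 26700 and 38000 CPM in Cx43KO. Per 1000 CPM of these markers, Vegfa was at 4.78, 3.30 and 3.46 in Cx43FL and at 2.93, 2.43 and 2.65 in Cx43KO. The genotypes then did not overlap, with Cx43KO lower, which was not so in CPM, and the log2 difference was -0.51 against -0.77 from CPM. Angptl4 remained lower in every Cx43KO library on this scale and Ccbe1 higher in every one. The share of all tested genes separated on this scale was not computed, so that these separations, that of Vegfa included, stand without a background. Agt was at 1.90, 2.44 and 1.71 against 0.726, 1.48 and 1.99, and overlapped, as did the other 5 genes. The log2 difference turned its sign for Vegfb, from -0.09 in CPM to 0.17 on this scale, and for Ptn, from -0.03 to 0.23. Cx43KO replicate 1 was no longer the lowest library for Vegfa, Vegfb, Ptn or Mdk, and it was the highest for Vegfb, Vegfc, Angpt1 and Ccbe1.

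Endothelial cells, the main responders to these ligands, left few counts. Their 17 markers, Erg among them at 0 in every library, summed to 42.1 to 56.7 CPM in Cx43KO against 14.3 to 32.1 CPM in Cx43FL, higher in every Cx43KO library, although 3 of the genes were separated lower and 1 higher. Counts of Cldn5 were 19, 2 and 17 for Cx43FL against 62, 0 and 70 for Cx43KO, and Pecam1 had 2 to 13 counts in any library. Summed fibroblast markers were at 66.8 to 164 CPM in Cx43KO against 52.1 to 60.5 CPM, and mural cell markers overlapped, with 36.0 CPM as the lowest Cx43FL and 92.6 CPM as the highest Cx43KO sum (Kcnj8 at 0 in every library). Vegfc followed the single fibroblast gene Dcn closely across the libraries, as given below. Vegfc and the summed fibroblast markers were both highest in Cx43KO replicate 3 (13.1 and 164 CPM), then in replicate 1 (7.20 and 99.7 CPM). In Cx43KO replicate 2 that sum, at 66.8 CPM, lay above every Cx43FL library, whereas Vegfc, at 2.61 CPM, lay below them all. The part of fibroblasts in the Vegfc values was not tested.

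Of the VEGF receptors, Flt1 was at 5.40, 1.72 and 0.130 CPM in Cx43FL and 7.76, 0 and 0.0926 CPM in Cx43KO, and Kdr counts were 2, 32 and 14 against 15, 7 and 178. Flt4, the receptor of VEGF-C, had 1 count in Cx43FL replicate 1 and 1 in Cx43KO replicate 3. The neuropilins, coreceptors that neural cells also express, were higher, with Nrp1 at 27.8, 10.9 and 23.8 CPM in Cx43FL and 38.6, 18.9 and 21.4 CPM in Cx43KO. Of the 12 other VEGF family genes listed, 9 were tested and 0 called, with a median log2 fold change of 0.34. Flt1, Kdr, Flt4, Tek, Tie1 and the angiotensin receptors were named for their roles, partly outside the naming rule and after their values were seen.

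Genes of oxygen sensing, through which low oxygen raises Vegfa and Angptl4, were found on both sides of 0. Among 8 sensing genes the median log2 fold change was 0.11, with 4 positive and 4 negative. Hif1a was at 66.3, 57.9 and 68.2 CPM in Cx43FL and 123, 83.3 and 101 CPM in Cx43KO, higher in every Cx43KO library (log2 fold change 0.67, SE 0.30, edgeR Benjamini-Hochberg adjusted p = 0.593). Vhl, which marks HIF proteins for degradation, was at 336, 312 and 309 CPM in Cx43FL and 86.3, 223 and 306 CPM in Cx43KO, lower in every Cx43KO library but by little in replicate 3. Epas1, the HIF subunit most counted here, overlapped at 602, 775 and 572 against 352, 565 and 721 CPM. Of 16 tested hypoxia target genes, 0 were called, 5 were positive and 11 negative, with a median of -0.21. Libraries were separated upward for 1 target and downward for 2, beside 8.08% and 7.45% of all tested genes. Pfkfb3, separated downward, was at 52.4, 65.7 and 55.4 CPM in Cx43FL and 40.6, 49.3 and 38.3 CPM in Cx43KO (log2 fold change -0.44, SE 0.33). Ndrg1 was the target with separated libraries and an unadjusted p below 0.05, at 15.7, 16.8 and 23.7 CPM in Cx43FL and 62.4, 30.8 and 34.8 CPM in Cx43KO (log2 fold change 1.19, SE 0.45, edgeR Benjamini-Hochberg adjusted p = 0.553). It is also a gene of myelinating oligodendrocytes, whose summed markers overlapped between genotypes (599 to 1020 against 619 to 2670 CPM). The highest marker sum and the highest Ndrg1 level were both in Cx43KO replicate 1. Without that library the log2 fold change of Ndrg1 was 0.81, and the part of oligodendrocytes was not tested.

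Inhibitors of angiogenesis had a median log2 fold change of 1.39 over 10 tested genes, beside 0.07 over all genes, with 8 positive and 2 negative and 0 called. Markers of fibroblasts (median log2 fold change 1.61, 7 tested) and choroid plexus (1.58, 10 tested), whose sums were higher in every Cx43KO library, moved the same way, and their part was not tested. Serpinf1, which encodes the antiangiogenic factor PEDF, was at 7.25, 25.9 and 18.3 CPM in Cx43FL and 34.5, 48.0 and 41.6 CPM in Cx43KO, without overlap (log2 fold change 1.27, SE 0.51, edgeR Benjamini-Hochberg adjusted p = 0.559). Adamts1, a protease that can bind VEGF-A, was also separated, with a log2 fold change of 1.63 (SE 0.54, edgeR Benjamini-Hochberg adjusted p = 0.540). Sparc, the matrix protein with the highest count of this list, ran from 284 to 2280 CPM in Cx43KO. In Cx43FL it ran from 613 to 849 CPM. The median of the inhibitors includes genes with few counts, named here outside the naming rule. Thbs2, Col18a1 and Vash1, at mean levels of 2.19, 1.68 and 1.15 CPM, had log2 fold changes of 2.51, 1.7 and 2.35. Thbs1 (0.889 CPM) also lay above the median, and Vash2 (2.21 CPM) was at -0.74. Of the genes with more counts, Adamts1 lay above the median, whereas Serpinf1, Sparc (0.64), Timp3 (0.59) and Thbs4 (-0.14) lay below it. Among other secreted angiogenic factors, 13 of 15 were tested and 0 called, with a median of 0.59. Fgf2 was separated, at 9.62, 2.85 and 10.2 CPM in Cx43FL and 26.8, 16.7 and 21.4 CPM in Cx43KO (log2 fold change 1.52, SE 0.62, edgeR Benjamini-Hochberg adjusted p = 0.563). Fgf1, the most counted factor, overlapped at 607, 621 and 676 against 270, 421 and 731 CPM, and Apln overlapped as well.

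Over all lists, 97 genes were looked up and 76 tested. edgeR called 0 of them and DESeq2 with its prior called 1, Lpl, where the shares over all genes were 0.00738% and 0.951%. At an unadjusted p below 0.05, 9 were higher and 0 lower, beside 5.66% and 2.67% of all genes. Their log2 fold changes were positive in 51 and negative in 25, with a median of 0.47 against 0.07 for all tested genes and -0.08 for the 9 secreted factors. Groups were separated upward in Cx43KO for 15 and downward for 3, beside 8.08% and 7.45% of all tested genes.

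**Figure D5:**
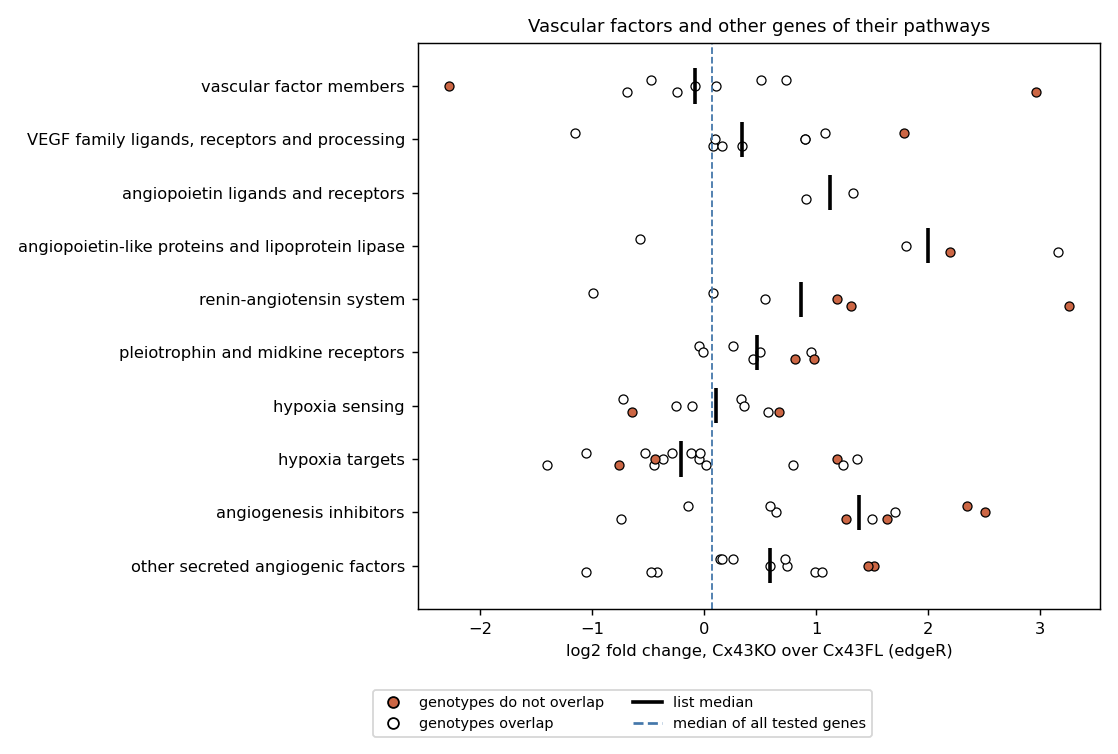
Log2 fold change, Cx43KO over Cx43FL, of the 9 vascular factors and of the tested genes of 9 related lists (rows); filled points are genes whose genotypes do not overlap, black bars are list medians and the dashed line is the median of all tested genes (0.07). The medians run from -0.21 for hypoxia targets to 1.99 for the angiopoietin-like proteins and lipoprotein lipase (4 genes), with -0.08 for the vascular factors.

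The genes whose levels across the 6 libraries were most like those of each factor were found among 11239 genes by the root mean square difference of centred log2 CPM. Vegfa was nearest to Ppp1r11 (0.06) and Mmp14 (0.10), Vegfb to Spred2 (0.06) and Ino80c (0.07), and Ptn to Rnf145 (0.10) and Gpc5 (0.11). For Agt the nearest were Syf2 (0.12) and Triqk (0.13), for Angpt1 Armcx1 (0.12) and Twistnb (0.18), for Mdk Rbfa (0.16) and Abhd14b (0.18), and for Vegfc Dcn and Fadd (both 0.18). Angptl4 was nearest to Zfp825 (0.15) and Xkr6 (0.29), and Ccbe1 to Rasal1 and Syt3 (both 0.28). Rasal1 was at 2.17, 2.32 and 4.36 CPM in Cx43FL and 35.9, 18.9 and 6.08 CPM in Cx43KO, highest in replicate 1 and lowest in replicate 3 among the Cx43KO libraries, as Ccbe1 was. Between the factors themselves, Vegfa and Vegfb, and Vegfb and Ptn, were the closest pairs (0.43 each), and Angptl4 and Ccbe1 the farthest (2.96). With 6 libraries and 11239 genes, a near profile is a description and all profiles share the depth and composition of the same libraries.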

How the data were processed

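Astrocyte polysomal mRNA, amplified with the Ovation RNA-Seq kit, was sequenced in 3 Cx43FL and 3 Cx43KO libraries of 6 weeks-old mice. The deposited values are raw counts per Ensembl transcript, which the authors made by filtering reads in Eoulsan, mapping them with STAR on mm10, discarding reads with several positions and counting with HTSeq 0.5.3, so that shared exons enter several transcripts.

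Tests had been designed for counts per gene. Of 75466 transcripts, 73157 matched GENCODE M21 (GRCm38) and 2309 did not (1.60% to 1.78% of counts). The authors' annotation was Ensembl's of the same build, and its models may differ. Each of 22086 genes was taken by its transcript with the highest total, and the same transcript was kept in every library. The members and lists were chosen with earlier results of these data known.

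Counts were fitted in edgeR 4.0.16 under R 4.3.3 (TMM, filterByExpr, quasi-likelihood F test, genotype only, all 6 libraries), with a call at a Benjamini-Hochberg adjusted p below 0.05 and a mean normalized count above 50. The SE is the size of the log2 fold change over the square root of F. Alternatives were other scalings and filters, DESeq2 1.42.0 with and without its prior, a replicate block, leaving out each library, transcripts added up or tested singly, and levels per astrocyte marker CPM. Single genes also had an exact 2-sided permutation test of log2 of CPM plus 0.5. The code of the fit was also run on simulated counts with known changes. These held no outlying library like Cx43KO replicate 1, and the outcome is not given here. The run therefore does not tell which size of change could be detected in these libraries. Tables and figures used numpy 2.4.6, pandas 2.3.3, scipy 1.17.1 and matplotlib 3.10.9.

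The genes named are the 9 factors, genes of the pathway lists that were called or had separated libraries with an unadjusted p below 0.05, otherwise at most 4 per list with the highest mean CPM, and the 2 nearest profiles of each factor among genes of at least 5 CPM. Exceptions are stated where they occur. Per M counts on genes, 3 counts correspond to 0.0864 to 0.203 CPM, which covers counting error only. All library pairs differed by more than sampling noise (chi-square per degree of freedom of at least 32.6). Vessel, protein and in situ data were not analysed here.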

Additional observations from a re-analysis of the deposited data

How the results depend on the processing

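Over all genes the count called was 1. It was 0 with at least 10 counts in every library, 0 with transcripts added up, 130 with DESeq2 and its prior, 172 with DESeq2 without a prior, 1129 at an unadjusted p below 0.05, and 0 to 11 when single libraries were left out (11 without Cx43KO replicate 1). Of the 9 vascular factors 0 were called, and 1 (Ccbe1) with DESeq2, with or without its prior, at log2 fold changes of 2.05 and 2.97. Of the other pathway genes 0 were called, 1 with DESeq2 with its prior, 1 without it, and 9 at an unadjusted p below 0.05. The log2 fold change turned its sign for Vegfb (-0.24 to 0.06 when single libraries were left out, 0.06 without Cx43KO replicate 1), Vegfc (-0.13 to 0.92, the lowest without Cx43KO replicate 3), Angpt1 (-0.88 to 0.11, the highest without Cx43KO replicate 2) and Ptn (-0.50 to 0.43, at -0.08 without Cx43FL replicate 1 and -0.50 without Cx43KO replicate 3). The scale per astrocyte marker, added later, turned the log2 difference of Vegfb from -0.09 to 0.17 and of Ptn from -0.03 to 0.23. Beside it, 126 of 134 alternative values of the factors' fold changes kept their direction and their side of the threshold, those of Vegfa, Agt, Mdk and Angptl4 among them. This count says little of the threshold, as edgeR called at most 11 genes by adjusted p in any setting. It does not measure size either, as Agt ran from -1.22 to -0.01 when single libraries were left out. Angptl4 could not be fitted with at least 10 counts in every library, since 1 library held 4. With the replicate number as a block, 2 genes and 0 of the factors were called, Ptn was at -0.04, Ccbe1 at 2.59 (edgeR adjusted p = 0.668) and Angptl4 at -2.80 (edgeR adjusted p = 0.695). Deviations of libraries with the same number correlated at 0.0115, -0.00405 and -0.0548, and those with different numbers at -0.0377 to 0.0475. No pairing by number was seen, but 3 libraries per genotype, with Cx43KO replicate 1 apart, cannot exclude it. The order of levels per kb kept the rank of 2 of the 9 factors in Cx43FL and 6 in Cx43KO without division by length, and of 7 and 5 with transcripts added up, where reads on shared exons count repeatedly. Other causes of these changes were not tested. Depth limits Vegfc, Ccbe1 and Angptl4 most, with lowest counts of 53, 31 and 4.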
